A study of Bos taurus with 10 samples.

Results

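The circadian clock genes described here are PER2 and NR1D1, measured in a back muscle, the longissimus dorsi, of 10 cattle of the Korean Hanwoo breed. They were found among 8 clock genes (PER1, PER2, DBP, NR1D1, NR1D2, BMAL1, CRY2 and TEF) by the gene symbol that the platform annotation gives to a probe set, the group of short probes that reads a transcript. PER2 had 2 probe sets and NR1D1 had 1. No probe set listed PER1, DBP, NR1D2, BMAL1, CRY2 or TEF, by symbol or by gene ID, so these 6 genes were not analysed here. The 2 genes stand among 9155 genes with a symbol on the array. The study set out to relate muscle expression to beef traits. Each sample is poly(A) RNA of 1 animal on 1 Affymetrix bovine array, and the animals are numbered 1 to 10. They form 1 group with no treatment. The label of animal 1 gives an age of about 2 years. Trait values and the time of day of sampling were not used here, so the genes are described by their level in each animal and by the genes they vary with. That the samples are separate animals rests on their numbering and on the study's design statement; if they were not, p-values would measure technical spread.

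The clock is a feedback loop of transcription that runs in nearly every cell, with a period near a day. BMAL1 and CLOCK form the activator, which switches on the PER and CRY genes; PER and CRY proteins then block that activator. The activator also switches on NR1D1, which encodes the nuclear receptor REV-ERB alpha, and REV-ERB alpha represses the BMAL1 gene. In skeletal muscle the loop is known for timing genes of glucose and fat use. PER2 also answers signals such as glucocorticoids and temperature. These roles are known mainly from mouse and human.

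The muscle identity of the samples was plain, since all 8 skeletal muscle markers had means between 15.63 and 16.05 on the log2(signal + 16) scale. Animal 5 stood apart: the 3' minus 5' difference of the poly(A) control RNAs added during labelling was 2.80 log2 in animal 5, against 1.09 to 1.38 in the other 9. The hybridization controls, added in a fixed amount, ran from 11.18 in animal 2 to 13.14 in animal 1, with 13.00 in animal 6 and 13.11 in animal 10.

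PER2, the period gene that closes the loop, had deposited intensities of 1002, 1526, 1235, 1313, 2025, 904, 542, 1366, 554 and 1024 in animals 1 to 10, read by its brighter probe set. After quantile normalization, which gives every array the same distribution, these were log2 levels of 10.05, 10.55, 10.28, 10.36, 10.98, 9.90, 9.13, 10.42, 9.11 and 10.06. Animal 5 was highest, animals 7 and 9 were lowest, and the other 7 lay between 9.90 and 10.55. The mean was 10.09 ± 0.59 (SD, n = 10), and the range of 1.88 log2 is 3.67-fold. The level was above 86.8% of all probe sets.

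The second PER2 probe set gave log2 levels of 10.39, 10.13, 9.93, 9.64, 10.31, 9.79, 9.08, 9.59, 9.26 and 10.09 in animals 1 to 10. Animals 7 and 9 were again the lowest, while animal 1 stood highest and animal 5 came next. Its mean was 9.82 ± 0.43 (SD, n = 10), with a 2.48-fold range. The probe sets correlated across animals with r = 0.741 (permutation p = 0.0132) and rho = 0.503 (permutation p = 0.142, n = 10). The correlation rested on animals 7 and 9. Without both, which were the farthest from the median, r was 0.194; without animal 7 it was 0.608 (exact permutation p = 0.0791) and without animal 9 it was 0.656 (exact permutation p = 0.0588).

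NR1D1, the repressor arm of the loop that acts on BMAL1, had deposited intensities of 732, 505, 326, 610, 278, 359, 372, 575, 524 and 1309 in animals 1 to 10. Its log2 levels were 9.59, 8.97, 8.43, 9.29, 8.27, 8.54, 8.60, 9.20, 9.03 and 10.40. Animal 10 stood highest, animal 1 came next, and animals 5, 3, 6 and 7 were the lowest. The mean was 9.03 ± 0.64 (SD, n = 10), and the range of 2.13 log2 is 4.36-fold. The level was above 77.4% of all probe sets. Without animal 10 the SD was 0.44.

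**Figure D1:**
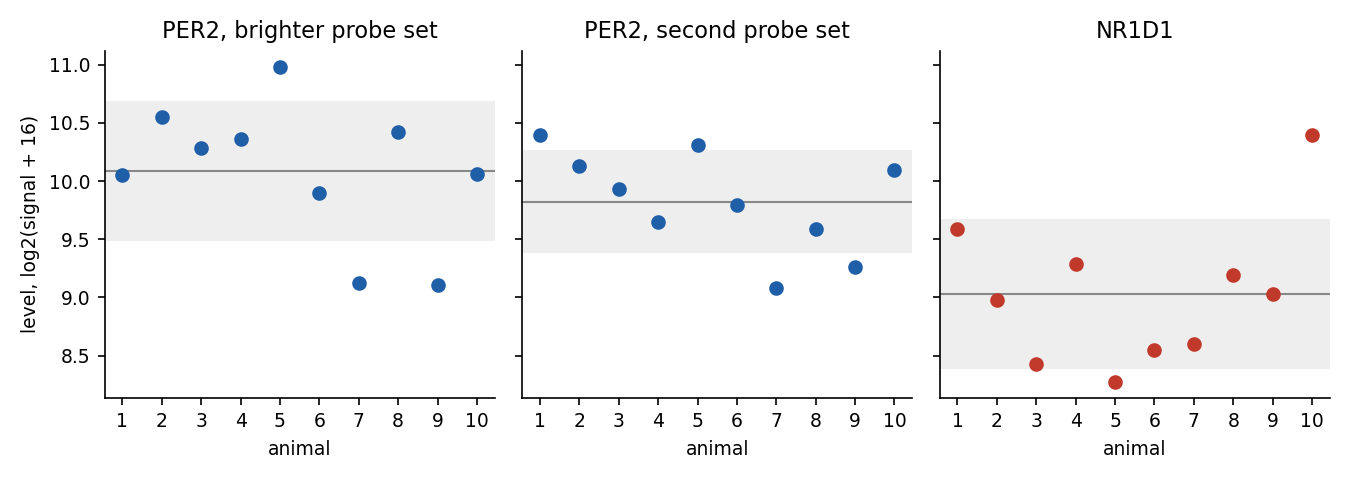
Levels of PER2 (both probe sets) and NR1D1 in each of the 10 animals, as log2(signal + 16) after quantile normalization. Points are animals, the line is the mean and the shaded band is ± 1 SD; animals 7 and 9 are lowest in both PER2 panels, and animal 10 is highest for NR1D1 at 10.40.

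Both genes varied more between animals than most genes of this muscle. Over the 6271 genes tested, those with a mean above the median of all probe sets (6.98 log2), the median SD was 0.36 and the 95th percentile was 0.75. The SD of PER2 lay above 87.3% of these genes and that of NR1D1 above 90.4%. Both were below the 95th percentile. The second PER2 probe set lay above 66.7%, and NR1D1 without animal 10 above 69.3%. These are descriptions of 1 group and carry no test.

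The design allows a test of whether PER2 and NR1D1 varied together. They did not pass it. Animal 5 was the highest of all for PER2 and the lowest of all for NR1D1, and animal 9 was lowest for PER2 with a middling NR1D1. The correlation was r = -0.071 (permutation p = 0.846) and rho = -0.176 (permutation p = 0.632, n = 10). In the limma fit, NR1D1 changed by -0.05 log2 per SD of PER2 (SE 0.19, adjusted p = 0.947 over all 6270 genes of the fit). Without animals 7 and 9 r was -0.455. With 1 animal left out in turn it ran from -0.259 without animal 7 to 0.197 without animal 5, and with the second PER2 probe set it was 0.197. The sign of r thus differed between these settings.

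**Figure D2:**
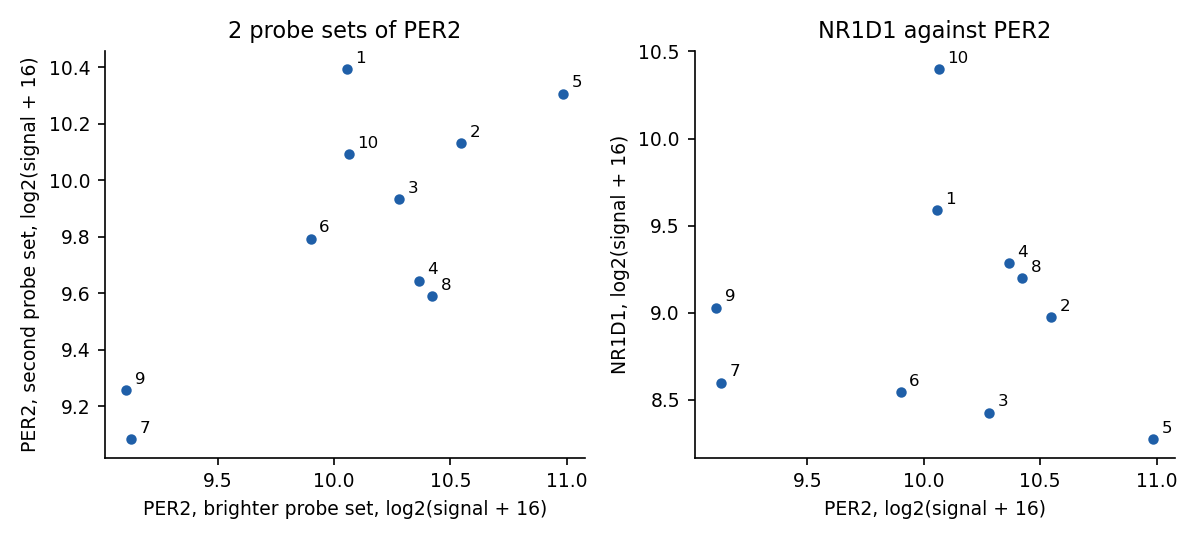
Left, the second PER2 probe set against the brighter one; right, NR1D1 against PER2, all in log2(signal + 16), with each of the 10 animals marked by its number. The left panel has r = 0.741, with animals 7 and 9 apart at the lower left; the right panel has r = -0.071.

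Neither gene passed a permutation test against the array measures, with adjustment over the 4 pairs compared. For PER2 and the poly(A) control difference, r was 0.449 (permutation p = 0.289, adjusted to 0.578) and rho was -0.127 (permutation p = 0.734, adjusted to 0.839, n = 10). This r rested on animal 5, the farthest from the median: without animals 5 and 3 it was -0.486. For NR1D1 and the same measure, r was -0.373 (permutation p = 0.215, adjusted to 0.578), or -0.025 without those animals, and rho was -0.139 (permutation p = 0.707, adjusted to 0.839). With the hybridization control level, PER2 gave r = -0.082 (permutation p = 0.815, also after adjustment), or 0.106 without animals 1 and 2, and rho = -0.321 (permutation p = 0.367, adjusted to 0.839). NR1D1 gave r = 0.20 (permutation p = 0.588, adjusted to 0.784), or 0.098 without them, and rho = 0.079 (permutation p = 0.839, also after adjustment).

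Genes that varied with PER2 were sought by fitting every tested gene against the PER2 level in SD units. None passed. In limma 0 of 6270 genes (0%) had an adjusted p below 0.05, and the smallest adjusted p was 0.34. An unadjusted p below 0.05 was reached by 611 genes (9.74%). Spearman correlation with exact p likewise gave 0 calls (0%), and 516 genes (8.23%) reached an unadjusted p below 0.05. Without animal 5 the limma count at an unadjusted p below 0.05 was 274 of 6274 genes, and the smallest adjusted p was 0.9998. Adding the poly(A) measure to the model gave 335 of 6270. Likeness was measured by Pearson r over the 10 animals. SYNE2, which encodes a nesprin that links the nucleus to the cytoskeleton, was most like PER2 (r = 0.927, slope 0.40 log2 per SD, SE 0.08, limma adjusted p = 0.34). MAGOHB, of the exon junction complex, followed with r = 0.926 and ATP2B1, a plasma membrane calcium pump, with r = 0.914. SMG1, a kinase of nonsense-mediated decay (r = -0.919), BSG, the basigin gene (r = -0.900), and TIE1, an endothelial receptor gene (r = -0.896), were the most opposite. Their limma adjusted p lay between 0.34 and 0.406. MAGOHB has 4 probe sets, ATP2B1 has 3, and SMG1 and BSG have 2 each, and these r are of the brightest alone. Without animal 5 the slopes of SYNE2, MAGOHB, ATP2B1 and TIE1 were 0.31, 0.36, 0.33 and -0.32, against 0.40, 0.46, 0.43 and -0.46 with all animals. Without animal 9 those of SMG1 and BSG were -0.28 and -0.17, against -0.35 and -0.24. Here and below, each slope is per SD over the animals in its fit, so slopes with an animal left out are in another unit. The PER2 SD was 0.59 with all animals and 0.51 without animal 9.

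A single gene passed against NR1D1. SLC39A11, of the ZIP family of zinc transporters, fell by 0.96 log2 per SD of NR1D1 (slope -0.96, SE 0.12, limma adjusted p = 0.0153, r = -0.939, rho = -0.952). It was the only call of 6270 genes (0.0159%), and 1007 (16.1%) had an unadjusted p below 0.05. Its log2 levels in animals 1 to 10 were 6.65, 7.70, 8.11, 7.43, 8.20, 7.77, 7.88, 7.56, 7.12 and 4.72. Animal 10, the highest for NR1D1, was far the lowest, with a deposited intensity of 12.7 that lies below the pseudocount of 16. Without animal 10 the slope was -0.44 per SD of the remaining animals (limma adjusted p = 0.182). That SD was 0.44, against 0.64 with all animals. Without animal 3 the limma adjusted p was 0.0587. A Spearman correlation per gene gave SLC39A11 an adjusted p of 0.0968 and called 1 other gene (0.0159% of 6270). That gene was PDE4A, a cAMP phosphodiesterase, named after its values were seen, with rho = 0.988, r = 0.842 and limma adjusted p = 0.0709.

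The genes next most like NR1D1 in either direction did not pass. KLHL25, an adaptor of a ubiquitin ligase, had r = 0.923 (slope 0.42, limma adjusted p = 0.0709). Its levels were highest in animals 10 and 1, at 10.22 and 9.91, and lowest in animal 3 at 8.82. FXR2, an RNA-binding protein gene, had r = 0.916 and DTX2 had r = 0.915. On the opposite side, GFM1, a mitochondrial elongation factor, had r = -0.932 and KYAT3, a kynurenine aminotransferase, r = -0.931. The limma adjusted p was 0.0697 for FXR2, GFM1 and KYAT3 and 0.238 for DTX2. GFM1 has 2 probe sets, and its r is of the brighter alone. Without animal 10 the slopes of KLHL25, DTX2, GFM1 and KYAT3 were 0.32, 0.12, -0.26 and -0.32. With all animals they were 0.42, 0.18, -0.43 and -0.45. The NR1D1 SD was 0.64 with all animals and 0.44 without animal 10, so these slopes are in unlike units. The FXR2 slope was 0.45, and its smallest with 1 animal left out was 0.37, without animal 5.

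**Figure D3:**
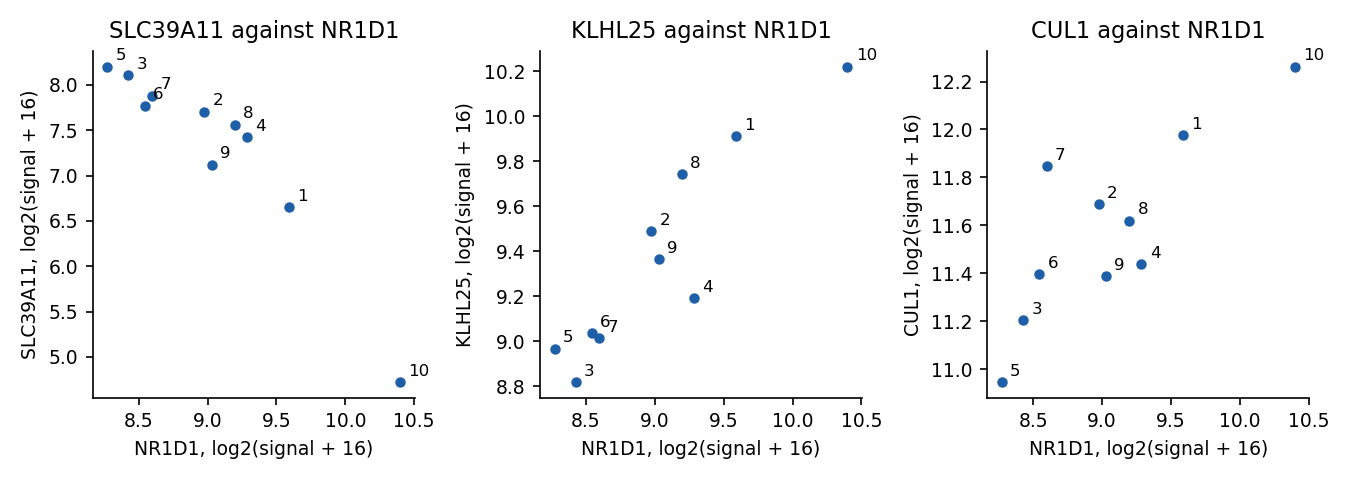
Levels of SLC39A11, KLHL25 and CUL1 against NR1D1, in log2(signal + 16), with each of the 10 animals marked by its number. SLC39A11 fell with NR1D1 and has animal 10 apart at 4.72; KLHL25 (r = 0.923) and CUL1 (r = 0.814) did not pass the limma test.

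The rest of the clock machinery was read through a list of 33 further genes, of which 22 were measured and 20 tested. CLOCK, NPAS2, BMAL2 and PER3 were among those not analysed here. CSNK1E and PRKAA2 were too dim to be tested. Of the 20, 13 had an SD above the median of all tested genes and 7 above their 75th percentile. In limma 0 of 20 passed against PER2 and 0 of 20 against NR1D1, beside 0% and 0.0159% of all genes. The median slope was 0.00 per SD of PER2 and 0.07 per SD of NR1D1, beside -0.02 and 0.01 over all genes.

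Among the transcription factors, NFIL3 varied most. NFIL3, which represses the D-box sites that DBP, TEF and HLF activate, had a mean of 10.12 ± 0.94 (SD, n = 10), from 8.43 in animal 8 to 11.40 in animal 1. Its SD lay above 98.2% of tested genes, and its other probe set followed it with r = 0.900. Against PER2 and NR1D1 its slopes were -0.13 and 0.06. CRY1, the partner of PER2 in the repressor complex, had 9.90 ± 0.35 and slopes of 0.00 and -0.20 (limma adjusted p = 0.994 and 0.365). RORA, the activator that competes with REV-ERB alpha for its sites, had 8.12 ± 0.44 and slopes of 0.07 and 0.06. BHLHE40, a repressor at E-boxes, had 10.12 ± 0.49 and slopes of 0.32 and 0.26 (limma adjusted p = 0.47 and 0.353). The other BHLHE40 probe set had r = 0.310 with the brighter one and -0.090 with PER2, against 0.652 for the brighter. TIMELESS had 7.86 ± 0.40. The dimmer probe sets of RORA (r = 0.051 and 0.373) and TIMELESS (r = 0.303) also followed their brightest loosely.

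HLF, a D-box activator of the same family as DBP and TEF, had the highest r with PER2 in the list. Its log2 levels were 11.20, 11.22, 11.18, 11.06, 12.40, 10.90, 10.57, 11.67, 11.16 and 11.37 in animals 1 to 10. Animal 5 was highest and animal 7 lowest. The slope per SD of PER2 was 0.35 (SE 0.12, r = 0.729, limma adjusted p = 0.418), and 0.18 without animal 5. The probe sets of HLF did not agree: the dimmer one had r = -0.016 with the brighter, -0.069 with PER2 and 0.719 with NR1D1. SIRT1, a deacetylase that acts on the clock, had a slope of 0.32 per SD of PER2 (r = 0.655, limma adjusted p = 0.47). Its other probe set had r = -0.048 with PER2 and 0.307 with the brighter one. FBXW11, an F-box protein that marks PER proteins for breakdown, had the lowest r with PER2, at -0.499 (slope -0.10, limma adjusted p = 0.66; slope -0.02 without animal 5).

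**Figure D4:**
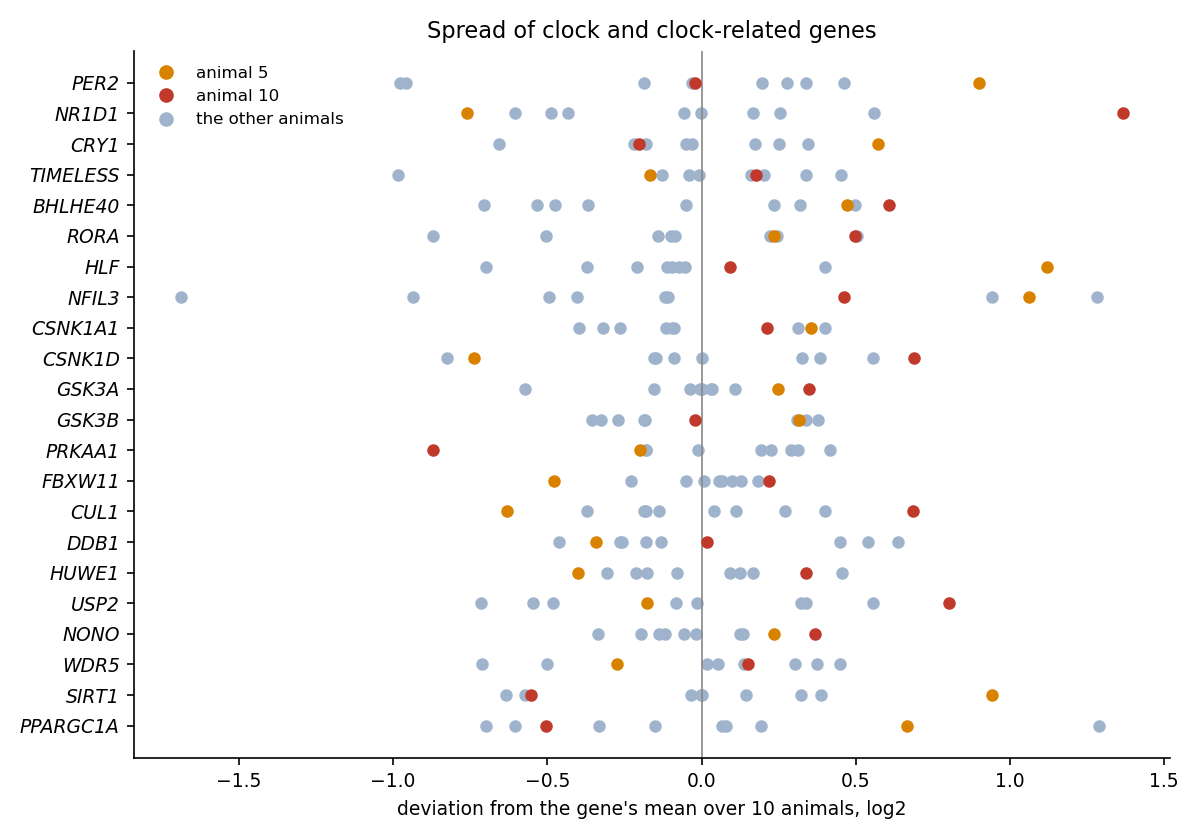
Deviation of each animal from the gene's mean over 10 animals, in log2, for PER2, NR1D1 and 20 further clock-related genes. Orange points are animal 5 and red points animal 10; NFIL3 (SD 0.94) is the widest row, PER2 has animal 5 highest, and NR1D1 has animal 10 highest.

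HUWE1, CUL1, CSNK1D, FBXW11 and USP2 had the highest r with NR1D1 in this list. HUWE1, a ubiquitin ligase known in human cells to act on REV-ERB alpha, had r = 0.831 (slope 0.23, limma adjusted p = 0.2), and its other probe set had 0.650. CUL1, the scaffold of the ligase that holds FBXW11, had r = 0.814 (slope 0.31, limma adjusted p = 0.157), with 0.737 and -0.323 for its other probe sets. CUL1 levels were 11.98, 11.69, 11.21, 11.44, 10.95, 11.40, 11.85, 11.62, 11.39 and 12.26 in animals 1 to 10, highest in animal 10 and lowest in animal 5. CSNK1D, a casein kinase that phosphorylates PER, had r = 0.772 (slope 0.39, limma adjusted p = 0.153), but its other probe sets ran from -0.698 to 0.588. FBXW11 itself had r = 0.764 (slope 0.16, limma adjusted p = 0.314). USP2, a deubiquitinase under clock control in mouse, had r = 0.736 (slope 0.37, limma adjusted p = 0.183). CRY1 had the lowest r, at -0.560 (slope -0.20, or -0.13 without animal 5). PRKAA1 came next, at -0.551, but its rho was -0.201. Its level was 7.74 in animal 10, the highest for NR1D1, against 8.41 to 9.03 in the other animals. The kinase genes CSNK1A1 (r = -0.280) and GSK3B (r = 0.141) lay between. None of these passed.

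**Figure D5:**
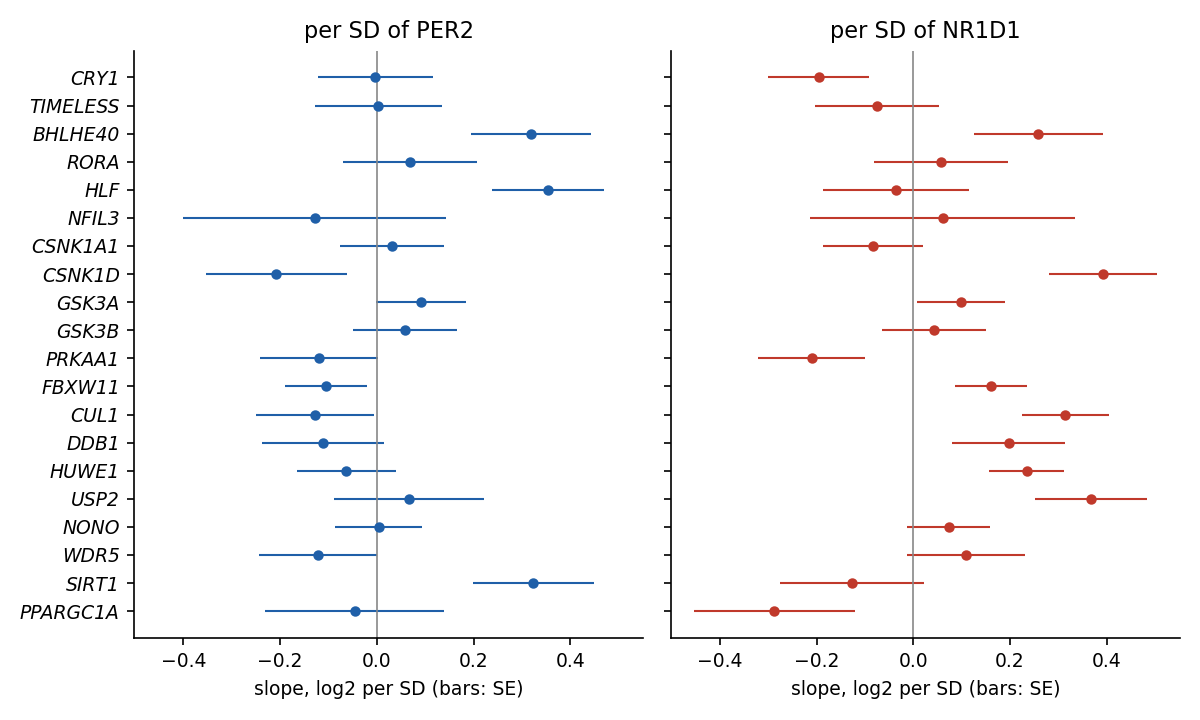
Slopes of 20 further clock-related genes per SD of PER2 (left) and per SD of NR1D1 (right), each read by its brightest probe set, in log2 per SD, with bars of ± 1 SE. None passed the limma test; HLF (0.35), SIRT1 (0.32) and BHLHE40 (0.32) have the largest slopes on the left, and CSNK1D (0.39), USP2 (0.37) and CUL1 (0.31) on the right.

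Further lists held genes that the clock or its input signals are known to move, and 0 of their members passed against either gene. Unless stated, each gene of these lists, some with several probe sets, is read by its brightest alone. Among 18 tested clock output genes, 5 slopes were above 0 for PER2 and 14 for NR1D1, beside 45.0% and 51.3% over all genes. The PER2 count was 8 with centring on the median or with the mean of probe sets. With 1 animal left out in turn the PER2 count ran from 4 (without animal 4 or 6) to 10 (without animal 9), with 9 without animal 5 or 8. PFKFB3, which sets the rate of glycolysis, had the highest r with NR1D1 (0.779, slope 0.78, limma adjusted p = 0.121). NFIC (r = 0.755) and the uncoupling protein gene UCP3 (r = -0.673) were at the ends for PER2, with limma adjusted p = 0.406 and 0.426. Without animal 5 the NFIC slope was 0.22, against 0.35 with all animals, and the UCP3 slope -0.18, against -0.42. Of 11 glucocorticoid-responsive genes, 7 slopes were above 0 for PER2 and 6 for NR1D1, beside the same shares over all genes. NR3C1, the glucocorticoid receptor, had r = 0.761 with PER2 (slope 0.39, limma adjusted p = 0.406; 0.21 without animal 5). FKBP5, a target of that receptor, had r = -0.486 with PER2 (slope -0.33, or -0.12 without animal 5). CEBPB had the highest r with NR1D1, at 0.751 (slope 0.58, limma adjusted p = 0.145), and ERRFI1 the lowest, at -0.531 (slope -0.19, or -0.12 without animal 5).

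Temperature and early response genes gave the same count of 0. Of 12 temperature genes, 6 slopes were above 0 for each clock gene, beside 45.0% of all genes for PER2 and 51.3% for NR1D1. The cold-induced RNA-binding gene RBM3 was at an end of both, with r = 0.626 for PER2 (slope 0.60, limma adjusted p = 0.461) and r = -0.498 for NR1D1 (slope -0.48, limma adjusted p = 0.347). HSPB1, a small heat shock protein gene, was at the other end of both, at -0.412 and 0.621. Its slopes were -0.14 and 0.21, and without animal 5 they were -3.77e-05 and 0.11. Of 13 early response genes, 9 slopes were above 0 for PER2 and 7 for NR1D1, beside the same shares over all genes. EGR1 had r = 0.606 with PER2 (slope 0.998, limma adjusted p = 0.463), and a slope of 0.37 without animal 5. ZFP36, which destabilizes short-lived transcripts, had r = 0.819 with NR1D1 (slope 0.63, limma adjusted p = 0.115). CREM with PER2 (-0.349) and JUN with NR1D1 (-0.506) had the lowest r. The CREM slope was -0.31, or -0.16 without animal 9, and the JUN slope -0.41, or -0.15 without animal 5.

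Markers of cells other than muscle fibres had slopes below 0 per SD of PER2 in the fit of all 10 animals, and 28 of 31 did without animal 5. The 31 tested markers, all below 0 with 10 animals, were 4 of fat cells, 6 of macrophages, 7 of connective tissue, 3 of endothelium, 5 of smooth muscle and 6 of plasma proteins made in liver. TF, HP and VTN of the liver list passed the level filter of 6.98 on means of 7.24, 7.53 and 7.13. Their medians of 6.65, 6.91 and 6.78 lay below it, and each was highest in animal 3. Only 4 liver genes stayed tested without animal 3 or without animal 7. Without animal 3, 28 of 28 tested markers were below 0, and without animal 7, 27 of 28. Over all genes 55.0% of slopes were below 0. Of the 8 skeletal muscle markers, 5 PER2 slopes were below 0 with quantile normalization (median -0.02), and 7 without animal 5. All 8 were below 0 with the deposited scaling (median -0.14) or with centring on the median (-0.14). After quantile normalization the median SD of these 8 markers was 0.06. None of the 31 passed limma, beside 0% of all genes. C1QA, a complement gene of macrophages, had a slope of -0.72 (SE 0.16, adjusted p = 0.342), the fat cell gene FABP4 -1.25 (SE 0.30, adjusted p = 0.385) and the smooth muscle actin ACTA2 -0.40 (SE 0.13, adjusted p = 0.406), all in limma. Without animal 5 the median slope went from -0.29 to -0.17 for macrophages, -0.23 to -0.11 for connective tissue and -0.51 to -0.15 for liver. For fat cells, endothelium and smooth muscle it was -0.78, -0.19 and -0.17, against -0.77, -0.17 and -0.12. Without animal 9 the median was -0.11 for macrophages (5 tested), -0.56 for fat cells, -0.12 for connective tissue and -0.15 for endothelium. For smooth muscle it was -0.22 and for liver -1.13, both farther from 0 than with all animals. Per SD of NR1D1, 17 of 31 slopes were below 0, beside 48.7% over all genes, and 26 of 31 were without animal 5 or with the poly(A) covariate. The summed log2 level over animals ran from 28.84 to 41.89 for the fat cell markers, 41.04 to 51.37 for macrophages, 66.09 to 85.29 for connective tissue, 26.28 to 29.21 for endothelium, 48.23 to 53.97 for smooth muscle and 38.62 to 68.25 for liver. Their part in the PER2 spread was not tested. In whole muscle, fewer cells of a type and less RNA per cell cannot be told apart. That statement does not extend to the plasma protein genes made in liver, whose source in these samples was not tested.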

How the data were processed

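Per the labels' protocols, poly(A) RNA was isolated on Oligotex resin from Trizol total RNA and labelled with biotin as Affymetrix prescribes. The authors deposited 1 linear intensity for each probe set on each array; which software made it is not given in the sources used. They were scaled in common, since the mean without the lowest and highest 2% was 500.177 to 500.203 on every array. Array median intensity lay between 111 and 134, and the number of arrays limits the precision.

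The 112 control probe sets were set aside and the other 24016 became log2(signal + 16), quantile normalized because array medians spanned 0.24. The 86 probe sets with several symbols and 10638 with none were not named. Symbols follow the platform annotation, and 9151 of 9155 occur in the RefSeq gene table of ARS-UCD2.0. The brightest probe set stood for a gene. The 6271 genes with a mean above the median of all probe sets were tested.

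Fits used limma (version 3.58.1, R 4.3.3) with a clock gene in SD units as covariate and Benjamini-Hochberg adjustment over all tested genes at 0.05. The SD was taken over the animals in each fit, so slopes with an animal left out are per a different SD. Permutation tests are two-sided with 100000 resamples, or exact with 9 samples or fewer. The hybridization control level is the mean log2 of all such probe sets, and the poly(A) difference is the mean of 3' minus 5' over dap, lys, phe and thr. The members and the gene lists were chosen with earlier results of these data known. Genes were named by rule: the clock genes, the genes past the threshold, the 3 highest and 3 lowest r per clock gene, and list members at the ends of r. Simulated data with known slopes served to test the fits. Alternatives were other scaling, pseudocounts of 1 and 64, other filters, the mean of probe sets, each animal left out, array measures as covariates and Spearman correlation. Promoter motifs and sequences were not used here.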

Additional observations from a re-analysis of the deposited data

Results flagged for a closer look

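A gap of 1 animal from the other 9 was looked for in 51 levels and array measures, and 6 exceeded Dixon's 95% critical value, which chance passes in about 1 of 20 groups. Neither PER2 probe set nor NR1D1 was among them. SLC39A11, the gene called against NR1D1, stood at 4.72 in animal 10, against 6.65 to 8.20 in the others. PRKAA1, a catalytic subunit gene of the kinase AMPK, stood at 7.74 in animal 10, against 8.41 to 9.03. TIMELESS stood at 6.87 in animal 1, against 7.69 to 8.31, and its SD without animal 1 was 0.21. In animal 5, UCP3 stood at 12.20, against 13.27 to 14.42, and JUN at 14.38, against 11.31 to 12.89. The poly(A) control difference was 2.80 in animal 5, against 1.09 to 1.38.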

How the results depend on the processing

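The means of PER2 and NR1D1 moved by less than 1 SD under every alternative run, with ranges of 9.98 to 10.19 and 8.88 to 9.12 when each animal was left out. Their SDs ran from 0.51 to 0.63 and from 0.44 to 0.68. The count of genes called with PER2 was 0 under all alternatives run, including both chosen after seeing the data: the hybridization control level as a covariate and the second PER2 probe set. The count with NR1D1 was 1 and ran from 0 (without animal 3 or 10) to 10 (without animal 5); it was 3 without animal 1 or 6 and 6 without animal 4. It was 2 with the deposited scaling, 3 with a pseudocount of 1, 6 with the poly(A) difference as a covariate, and 0 with centring on the median, no filter or a filter at the 75th percentile, where SLC39A11 was not tested. The limma adjusted p of SLC39A11 was 0.105 with centring and 0.0632 without a filter. The cause was not tested. The r of the PER2 probe sets ran from 0.608 to 0.845 when each animal was left out. The r of PER2 and NR1D1 was 0.045 with the mean of probe sets, 0.116 with the poly(A) covariate and 0.197 with the second PER2 probe set, and -0.259 to 0.197 over the animals left out. Over the same omissions, r with the poly(A) difference ran from -0.502 to 0.535 for PER2 and -0.496 to 0.246 for NR1D1, and r with the hybridization level from -0.275 to 0.098 and -0.200 to 0.331; for PER2 the last was 0.117 with the mean of probe sets and 0.370 with the second probe set. The PER2 slope of FKBP5 was 0.012 with the second probe set and that of CREM 0.12 with the mean of probe sets, against -0.33 and -0.31. Of the 31 markers, 28 had PER2 slopes below 0 without animal 5, 29 with the poly(A) covariate and 30 with Spearman correlation; of those tested it was 27 of 28 without animal 7, 29 of 30 without animal 9 and 35 of 37 without a filter. No paired analysis was possible because the labels give 1 group. A limit is the single NR1D1 probe set, which no other probe set checks here.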
